A study of Mus musculus with 7 samples.

Results

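The genes described here are antiviral interferon-stimulated genes, measured in mouse spleen after injection of lipopolysaccharide (LPS). A list of 38 gene symbols was given, and a gene was kept when its mean over the 7 libraries was at least 1 FPKM (fragments scaled by transcript length and by library depth, a level per length). The authors' table holds 36 of the 38, all 36 passed the minimum, and Mx1 and Mx2 are not analysed here. They stand among 17920 genes listed and 11378 genes that passed the same minimum and were tested.

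The mice were 8 weeks old and labelled C57BL/6. All had received 20 mg/kg LPS intraperitoneally, including the wild-type mice, and no untreated spleen enters any comparison here. The genotypes were labelled wild type and GdX-/-. Ubl4a, on the X chromosome, is the gene for GdX (UBL4A), a ubiquitin-like protein of the chaperone complex for tail-anchored membrane proteins. Spleens were taken at 90 min (2 wild-type and 2 GdX-deficient libraries) or 6 h (2 wild-type libraries and 1 GdX-deficient library), and the series' design text counts 4 wild-type and 3 GdX-deficient mice. Any GdX-deficient value at 6 h is therefore 1 library, and in every test it was assumed to vary like the groups with 2. The samples are labelled splenocytes, while the protocol describes RNA from crushed spleen, so all spleen cells, red cells included, contribute. In such bulk RNA, fewer cells of a type and less RNA per cell cannot be told apart.

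LPS is sensed by Toll-like receptor 4 with CD14 and MD-2, and the adaptor TRIF (Ticam1) carries the signal to IRF3 and the interferon beta gene. Secreted type I interferon then acts through IFNAR1 and IFNAR2 and the kinases JAK1 and TYK2 on transcription factors that bind interferon-stimulated response elements in promoters. The genes so induced encode sensors of viral nucleic acid, proteins that block translation or degrade RNA, factors that act on virus entry, replication or release, and the ubiquitin-like modifier ISG15 with its enzymes. Several are also direct targets of IRF3, which can act before interferon has been secreted.

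The promoters of members that changed with time are shown first, because their response element is the feature by which the family is usually recognised. RefSeq promoter windows (GRCm38.p6, 250 bases before to 50 after the annotated start) were matched for 28 of the 36 members. Oas2, Usp18, Zbp1, Rtp4, Dhx58, Parp9, Parp14 and Ifi204 had none. The motif searched was GAAA, any 2 bases (NN), then GAAA, on both strands, so that the other strand reads TTTC, any 2 bases, TTTC, with overlapping matches counted. It was found in 15 of the 28 members (53.6%) and in 3.99% of all 27025 genes with a window. By window, 50% of 32 and 3.44% of 32851 held it. Below are 200 bases upstream of the start, 5′ to 3′ on the gene's strand, with matches in capitals. Ifit1, Ifit3 and Ifit3b were lower at 6 h than at 90 min in wild type, Oas1a, Oas1g and Oasl2 were higher, and Isg15 had the highest mean level.
Ifit1, chr19:34640689-34640888, plus strand: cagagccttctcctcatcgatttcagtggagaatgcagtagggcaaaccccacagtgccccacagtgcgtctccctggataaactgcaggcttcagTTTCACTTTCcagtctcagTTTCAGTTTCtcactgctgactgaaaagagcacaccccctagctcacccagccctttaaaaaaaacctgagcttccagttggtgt
Ifit3, chr19:34583329-34583528, plus strand: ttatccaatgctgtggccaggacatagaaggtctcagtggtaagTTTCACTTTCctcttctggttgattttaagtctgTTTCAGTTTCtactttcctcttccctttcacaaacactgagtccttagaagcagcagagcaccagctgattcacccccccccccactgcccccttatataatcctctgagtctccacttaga
Ifit3b, chr19:34607757-34607956, plus strand: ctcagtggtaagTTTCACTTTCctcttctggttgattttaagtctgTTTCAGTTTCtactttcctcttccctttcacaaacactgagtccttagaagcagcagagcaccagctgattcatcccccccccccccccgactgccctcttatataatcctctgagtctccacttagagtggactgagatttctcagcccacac
Oas1a, chr5:120907526-120907725, minus strand: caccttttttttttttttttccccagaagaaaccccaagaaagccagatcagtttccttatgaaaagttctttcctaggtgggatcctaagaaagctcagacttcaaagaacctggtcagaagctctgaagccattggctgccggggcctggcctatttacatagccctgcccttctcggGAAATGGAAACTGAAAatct
Oas1g, chr5:120887614-120887813, minus strand: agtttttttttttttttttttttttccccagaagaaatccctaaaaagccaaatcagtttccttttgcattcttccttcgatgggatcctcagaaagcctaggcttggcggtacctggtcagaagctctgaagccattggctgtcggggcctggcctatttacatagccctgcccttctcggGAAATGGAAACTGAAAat
Oasl2, chr5:114896734-114896933, plus strand: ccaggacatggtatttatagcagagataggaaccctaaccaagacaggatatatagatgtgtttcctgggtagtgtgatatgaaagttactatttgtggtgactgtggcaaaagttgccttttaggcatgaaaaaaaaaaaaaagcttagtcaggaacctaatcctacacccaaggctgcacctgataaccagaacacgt
Isg15, chr4:156200819-156201018, minus strand: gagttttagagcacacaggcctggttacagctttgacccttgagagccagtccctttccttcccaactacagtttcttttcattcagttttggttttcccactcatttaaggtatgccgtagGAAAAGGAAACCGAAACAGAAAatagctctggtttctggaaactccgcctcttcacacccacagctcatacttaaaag
In Ifit1 the matches begin 104 and 85 bases upstream of the start, in Ifit3 156 and 122 and in Ifit3b 188 and 154, and all lie on the opposite strand. Oas1a holds a pair of overlapping matches that begin 20 and 14 bases upstream, and Oas1g the same pair at 18 and 12. Isg15 holds 3 overlapping matches that begin 78, 72 and 66 bases upstream. Oasl2 shows no match, which says only that these letters are not in its window.

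The libraries were close in depth. From the steps of low FPKM values, each held an estimated 18600000 to 20400000 fragments, and the lowest value of any member, that of Oas1g, corresponded to about 150 fragments. Between 7.73% and 30.9% of all FPKM in a library belonged to globin genes, which lowers the FPKM of every other gene, and the 36 members together took 0.639% to 1.01%. Ubl4a stood at 5.62 and 7.5 FPKM in wild type and 4.03 and 5.69 in GdX-deficient spleen at 90 min, and at 11.9 and 14.0 against 10.6 at 6 h. These levels overlapped at 90 min and do not by themselves show a loss of Ubl4a, and which part of the gene was deleted is not given in the sources used here. Gm44504, an overlapping entry on the X chromosome, stood at 14.5 to 51.1 FPKM in the 4 wild-type libraries and 0.66 to 1.86 in the 3 GdX-deficient ones, and thus separated the labelled genotypes. So did the beta-globin genes Hbb-b1, at 16577 to 44998 FPKM in the 3 GdX-deficient libraries against 6.7 to 13.8 in wild type, and Hbb-b2, at 4059 to 11053 against 1.55 to 4.68. These genes belong to another haplotype of the beta-globin locus than Hbb-bs and Hbb-bt, the pair carried by C57BL/6. The GdX-deficient libraries held both pairs, and the part of strain background in the genotype comparisons was not tested. Differences between replicates followed transcript length. Over 11180 genes with a known length, Spearman's rho between length and the log2 difference of replicate 1 from 2 was -0.591 in wild type at 6 h, -0.446 in wild type at 90 min and -0.166 in GdX-deficient spleen at 90 min.

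Across the 36 members the mean level over 7 libraries ran from 7.57 FPKM for Ddx60, a helicase, to 901 FPKM for Isg15, the ubiquitin-like modifier. Isg15 was followed by Ifit3 (482), Bst2 (388), Ifit1 (327) and Zbp1 (307). Near-identical copies make some levels uncertain. Of the 50-base words in the transcripts of Oas1a, 57.6% also occur in Oas1g, and 51.2% of those of Ifit3 occur in Ifit3b. For Phf11b 47.0% of words are shared with other genes, and for Ifi204 20.0%. How fragments were divided between such copies is not given in the sources used here.

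**Figure D1:**
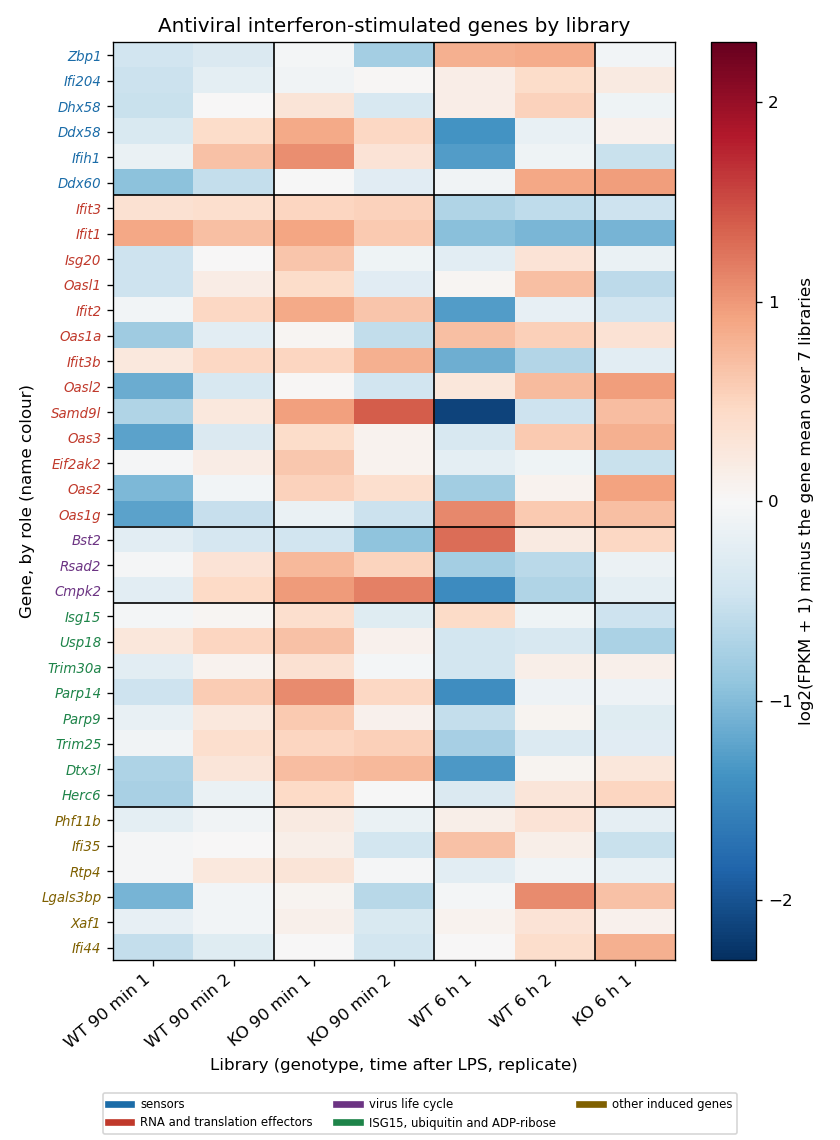
Each row is a gene, grouped by role (colour of the name), and each column a library (WT, wild type; KO, GdX-deficient). Colour gives log2(FPKM + 1) minus the mean of that gene over the 7 libraries. Ifit1 and Ifit3 are red in all 4 libraries at 90 min and blue in all 3 at 6 h, and long transcripts (Samd9l, Parp14, Dtx3l) are bluer in replicate 1 than in replicate 2 of wild type at both times.

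The clearest differences were between times. From 90 min to 6 h in wild-type spleen, 7 of the 36 members passed the threshold (limma adjusted p under 0.05 over all genes tested), 3 lower and 4 higher at 6 h, where 10.7% of all 11378 genes passed (4.39% higher and 6.32% lower). All 3 that fell encode IFIT proteins, which bind foreign RNA and block its translation. Of the 4 that rose, 3 belong to the oligoadenylate synthetase (OAS) family, whose enzymes make the second messenger that activates RNase L, and the other was Zbp1, a sensor of Z-form nucleic acid. With FPKM rescaled without the globin genes the 3 lower genes and, of the higher ones, Oas1g alone passed (11.1%, against 6.22% of all genes), and without the filter on low values only Ifit1 did (2.78%, against 3.54%). The median log2 difference of the 36 was 0.18, with 19 above and 17 below 0, and that of all genes was 0.05 (53.1% above 0). Both 6 h libraries lay above both 90 min libraries for 13 members (30.3% of all genes) and below both for 10 (27.6% of all genes). Left out in turn, wild-type 6 h replicate 2 and 90 min replicate 1 turned the members' median to -0.13 and -0.09, while without 90 min replicate 2 it was 0.30.

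Ifit1 stood at 509 and 444 FPKM in wild type at 90 min and at 141 and 133 at 6 h. The GdX-deficient libraries stood at 515 and 419 at 90 min and 131 at 6 h. Each library at 6 h lay below every library at 90 min, in both genotypes. Its level in wild type fell by 1.79 on the log2(FPKM + 1) scale (SE 0.25, limma adjusted p = 0.0048). Ifit3, whose human counterpart binds IFIT1, stood at 576 and 594 FPKM in wild type and 639 and 655 in GdX-deficient spleen at 90 min. At 6 h its values were 281, 303 and 327, the last in the GdX-deficient library, so that the times again did not overlap. In wild type it fell by 1.00 (SE 0.25, limma adjusted p = 0.0341). Its near-copy Ifit3b fell by 1.26 in wild type (SE 0.27, limma adjusted p = 0.0198), from 116 and 137 to 44.6 and 60.8 FPKM, with 139, 175 and then 82.5 FPKM in the GdX-deficient libraries. Ifit2, of the same family, stood at 119.6 and 175 FPKM in wild type at 90 min and 50.5 and 109.5 at 6 h, against 229, 195 and 92.2 in GdX-deficient spleen. Its wild-type difference of -0.95 did not pass (SE 0.37, limma adjusted p = 0.129).

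Oas1g had the largest difference among the members that were higher at 6 h. It stood at 3.89 and 6.99 FPKM in wild type at 90 min and 23.6 and 16.6 at 6 h, a log2 rise of 1.73 (SE 0.34, limma adjusted p = 0.0161). In GdX-deficient spleen it stood at 9.39 and 7.12 and then 17.7 FPKM. Oas1a, the near-copy of Oas1g, rose by 1.15 in wild type (SE 0.30, limma adjusted p = 0.0423), from 67.4 and 101 to 194 and 175 FPKM. Its GdX-deficient values were 124, 80.9 and then 151 FPKM. Oasl2, an OAS-like protein, stood at 39.4 and 67.9 FPKM in wild type at 90 min and 105 and 146 at 6 h, a rise of 1.24 (SE 0.33, limma adjusted p = 0.0422). The GdX-deficient libraries stood at 89.8 and 64.4 and then 171 FPKM. For all 3 genes every 6 h library lay above every 90 min library. Zbp1 was the 1 sensor to pass. In wild type it rose by 1.22 (SE 0.29, limma adjusted p = 0.0314), from 208 and 223 to 498 and 509.6 FPKM. The GdX-deficient libraries were at 275, 163 and, at 6 h, 269.8 FPKM, so that here the times overlapped.

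**Figure D2:**
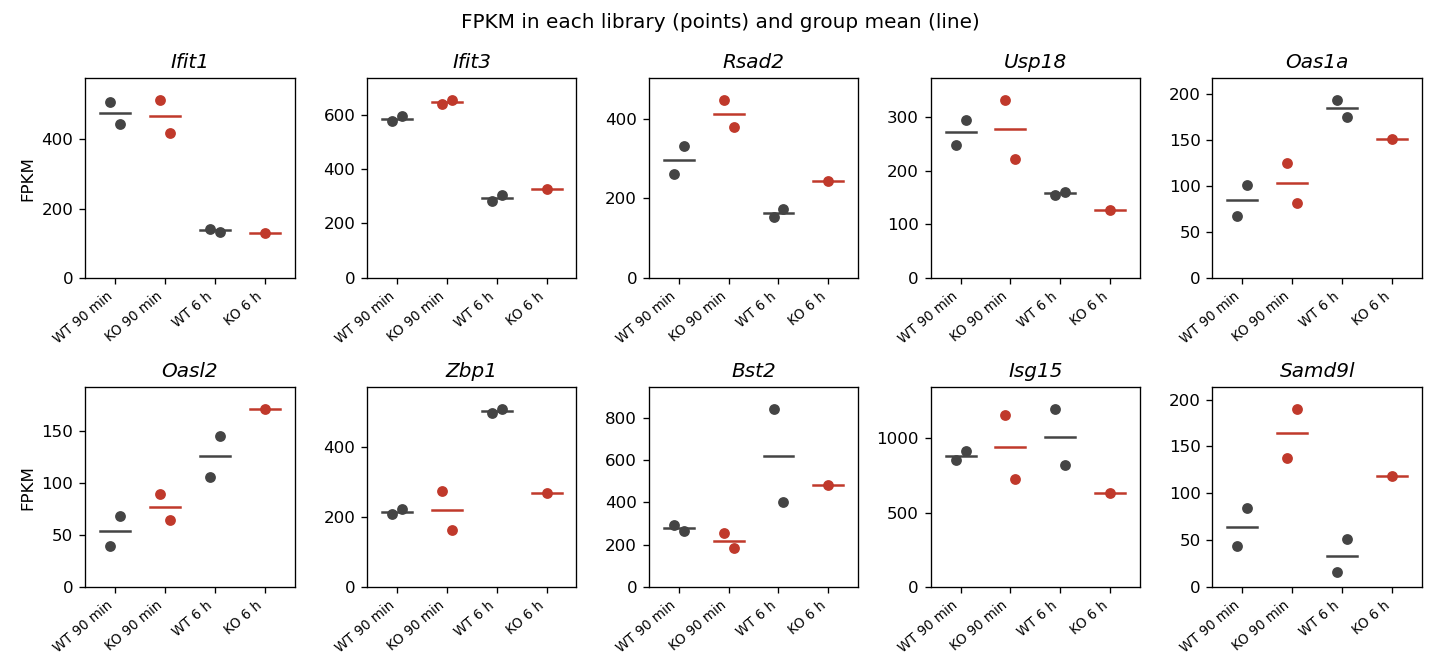
FPKM of 10 members in each library (points) with group means (lines), by genotype and time after LPS. Ifit1, Ifit3, Rsad2 and Usp18 are lower at 6 h in both genotypes, Oas1a and Oasl2 are higher in both, and Zbp1 stands at 498 and 509.6 FPKM in wild type at 6 h against 269.8 FPKM in the GdX-deficient library.

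The remaining members of known function did not pass this test. Of all 36 members, 17 had an unadjusted p under 0.05, the 7 that passed included, against 28.7% of all genes. Cmpk2, a mitochondrial nucleotide kinase, stood at 69.7 and 115 FPKM in wild type at 90 min and 29.7 and 51.2 at 6 h (log2 difference -1.18, SE 0.34, limma adjusted p = 0.0543). The neighbouring gene Rsad2 (viperin), which makes a chain-terminating nucleotide from CTP, stood at 261 and 332 and then 154 and 173 FPKM (-0.85, SE 0.26, limma adjusted p = 0.067). Usp18, the protease that removes ISG15 and dampens interferon receptor signalling, stood at 249 and 295 and then 156 and 161 FPKM (-0.78, limma adjusted p = 0.101). For all 3 the wild-type times did not overlap. Bst2 (tetherin), which holds budding virus at the cell surface, stood at 293 and 265 FPKM and then at 843 and 400.4, a difference of 1.06 (SE 0.36, limma adjusted p = 0.0933) whose 6 h replicates lay far apart. The RNA helicase Ifih1 (MDA5) stood at 40.7 and 72.5 and then 17.9 and 42.1 FPKM (-0.95), and Ddx58 (RIG-I) at 40.3 and 69.6 and then 19.1 and 45.8 FPKM (-0.82). In both, replicate 1 was the lower of each wild-type pair. The GdX-deficient libraries had 96.5 and 56.3 and then 31.5 FPKM of Ifih1, and 94.5 and 72.2 and then 55.4 FPKM of Ddx58, with each 6 h library below both of 90 min. Isg15 itself stood at 853 and 912 FPKM at 90 min and at 1199.7 and 819.9 at 6 h, so that its times overlapped. In GdX-deficient spleen Isg15 had 1157 and 729 FPKM at 90 min and 634 at 6 h.

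The wild-type count depended on single libraries. Without replicate 2 of wild type at 6 h, 16 members passed (44.4%, against 15.6% of all genes in that fit), 5 higher and 11 lower at 6 h. Without replicate 1 of wild type at 90 min 2 passed (5.56%, against 3.96%), both lower, and without either GdX-deficient library at 90 min 4 passed (11.1%, against 9.54% and 9.57%). Ifit1 passed in all 15 alternatives run, with differences between -1.90 and -1.69. Oas1g passed in 13, Ifit3b in 12, Zbp1 in 11, Ifit3 in 9, Oasl2 in 8 and Oas1a in 7 of the 15, and none of the 7 genes changed direction. Other spleen genes changed alongside. In wild type from 90 min to 6 h all 6 T cell markers and all 6 red pulp macrophage markers were lower, 4 of each list past the threshold (6.32% of all genes were called lower), and all 6 B cell markers were lower, 2 past it. All 9 red cell markers were lower too, 4 past it and 8 below both 90 min libraries (27.6% of all genes), and globin went from 19.2% and 22.3% of the FPKM sum at 90 min to 7.73% and 9.46% at 6 h. The summed T cell markers went from 302 to 357 FPKM at 90 min to 131 to 154 at 6 h in wild type and stood at 277 in the GdX-deficient library at 6 h. Their part in the results was not tested.

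The same change of time was then read in GdX-deficient spleen, where 1 library at 6 h was set against 2 at 90 min. No member passed in limma, as none of the 11378 genes did (0%), and 14 members had an unadjusted p under 0.05 against 8% of all genes. The 36 differences nevertheless rose and fell with those of wild type, with which they share no library. They lay lower for 27 of the 36 members, with a median of -0.39 against 0.18 in wild type. Across the 36 members Pearson's r was 0.894 and Spearman's rho 0.889, and 30 of 36 had the same sign. Across all 11378 genes r was 0.468, rho 0.438 and 66.9% had the same sign. The points of each set share their libraries, so these values are descriptions. With the trend on transcript length removed, r over the members was 0.903, and 28 of 36 had the same sign.

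In GdX-deficient spleen Ifit1 differed by -1.82 (SE 0.31, limma adjusted p = 0.0883), Ifit3 by -0.98 and Ifit3b by -0.91, each close to its wild-type value. Usp18 was at 333 and 223 FPKM at 90 min and 126 at 6 h (-1.10, SE 0.34, limma adjusted p = 0.331). Cmpk2 went from 165 and 187 to 71.3 FPKM (-1.29, limma adjusted p = 0.367), and Rsad2 from 448 and 379 to 244. Higher at 6 h were Oasl2 (1.16), Bst2 (1.16, from 253 and 182 to 483 FPKM), Ifi44 (1.03, from 11.2 and 8.08 to 20.6), Oas1g (1.02) and Oas1a (0.58). In wild type Ifi44 stood at 7.37 and 9.01 and then 11.3 and 15.2 FPKM. Of all 36 members, 13 lay above 0 (75.1% of all genes did) and 23 below, with a median of -0.39, while the median of all genes was 0.25. The 6 h library lay below both 90 min libraries for 21 members (58.3%, against 15.8% of all genes) and above both for 11 (30.6%, against 56.8%). Without the 90 min replicate 1 the median was -0.11 and without replicate 2 it was -0.45. In the fits without a wild-type library, 1 or 2 members passed, 2 when either 6 h wild-type library was left out (5.56%, against 2.03% and 2.07% of all genes) and 1 for those of 90 min (2.78%, against 0.536% and 0.527%), and Ifit1 was among them (limma adjusted p from 0.0012 to 0.0297).

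**Figure D3:**
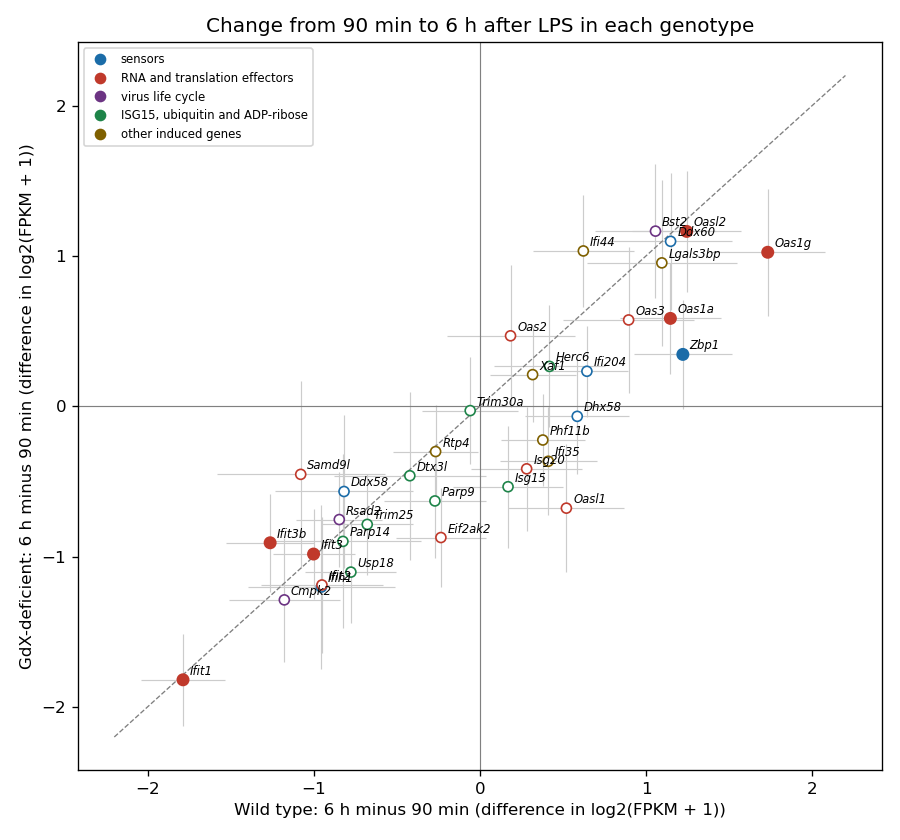
Each point is a member, with its 6 h minus 90 min difference in wild type on the horizontal axis and in GdX-deficient spleen on the vertical axis. Bars are standard errors, filled points passed in wild type, and the dashed line marks equal differences. Ifit1 lies at -1.79 and -1.82, Oasl2 at 1.24 and 1.16, and Zbp1 (1.22 and 0.34) and Oasl1 (0.52 and -0.68) lie furthest below the line among the higher genes.

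Genotype was compared at 90 min next. Most members stood somewhat higher in GdX-deficient spleen, with 32 of 36 above 0 and a median of 0.31, against 56.5% of genes above 0 and a median of 0.07 over all genes. None passed in limma, where 0.0176% of all genes did (2 genes, Hbb-b1 and Hbb-b2), and 4 members had an unadjusted p under 0.05 (7.58% of all genes). Fitted on the 4 libraries of 90 min alone, limma called 1 member, and likewise 1 without either wild-type library of 6 h. That is 2.78% of members, against 1.52% to 1.61% of all genes in those fits. For 15 members (41.7%) both GdX-deficient libraries lay above both wild-type ones, against 24.1% of all genes, and for 1, Bst2, both lay below (2.78%, against 23.4%). The median was 0.13 without wild-type replicate 1 and 0.56 without replicate 2, and 0.11 and 0.57 without GdX-deficient replicate 1 and 2. With FPKM rescaled without the globin genes it was 0.52, with 35 of 36 above 0, and the median of all genes was 0.25. Without GdX-deficient replicate 1 the median of all genes was 0.18, above that of the members, of which 23 of 36 lay above 0.

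The members furthest apart at 90 min were long transcripts. Samd9l, a restrictor of translation, had 43.9 and 84.4 FPKM in the wild-type libraries and 138 and 190.1 in the GdX-deficient ones (log2 difference 1.39, SE 0.51, limma adjusted p = 0.617). It was the member called in those 3 fits (limma adjusted p from 0.0126 to 0.0145). The oligoadenylate synthetase Oas3 stood at 55.0 and 43.2 against 16.8 and 32.4 FPKM (1.03, SE 0.39, limma adjusted p = 0.621), and Oas2 at 53.1 and 48.0 against 17.5 and 34.9 (1.00, SE 0.39, limma adjusted p = 0.621). Cmpk2, at 165 and 187 against 69.7 and 115 FPKM, differed by 0.96 (SE 0.34, limma adjusted p = 0.603). In all 4 genes the genotypes did not overlap, and wild-type replicate 1 was the lowest library of that time. Bst2 differed by -0.38 (SE 0.36, limma adjusted p = 0.692). Ifi35, at 217 and 147 against 195 and 200.04 FPKM, differed by -0.14, which turned to 0.07 after quantile normalization, 0.06 with FPKM rescaled without the globin genes, 0.02 with the length trend removed and 0.13 without GdX-deficient replicate 2.

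At 6 h the members split. The 1 GdX-deficient library lay above both wild-type libraries for 15 members (41.7%, against 54.9% of all genes), below both for 10 (27.8%, against 25.3%) and between them for the rest. The median was 0.15 with 19 of 36 above 0 (66.2% of all genes), while the median over all genes was 0.32. No member passed in limma, where 3.96% of all genes did (2.91% higher and 1.05% lower), and 5 reached an unadjusted p below 0.05 (28.4% of the genes tested). Leaving out wild-type 6 h replicate 2, 8 members passed, 7 higher and 1 lower (22.2%, against 26.7% of all genes in that fit), and the median was 0.38. Leaving out replicate 1 instead, 0 passed in limma (6.16% of all genes) and the median was -0.02. Without either wild-type library of 90 min 1 passed (2.78%, against 7.28% and 7.37%). The count of members above 0 moved from 19 to 27 after quantile normalization and to 11 with the length trend removed. With FPKM rescaled without the globin genes it was 27 too, the members' median was 0.43 and that of all genes 0.55. The balance of directions at 6 h thus depended on scaling.

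Samd9l again differed most, at 15.5 and 51.1 FPKM in wild type against 118 in the GdX-deficient mouse (log2 difference 2.02, SE 0.62, limma adjusted p = 0.0842). Oas2 stood at 70.2 against 20.5 and 38.8 FPKM (1.28, SE 0.47, limma adjusted p = 0.12), Oas3 at 73.1 against 31.4 and 62.5, and Cmpk2 at 71.3 against 29.7 and 51.2 (0.85, limma adjusted p = 0.205). These 4 genes lay above every wild-type library of the same time at both times. Lower in the GdX-deficient library were Zbp1, at 269.8 against 498 and 509.6 FPKM (-0.90, SE 0.36, limma adjusted p = 0.143), Ifi35, at 138 against 316 and 219 (-0.92, SE 0.36, limma adjusted p = 0.135), and Oasl1. Oasl1, which represses translation of the transcription factor IRF7 in mice, stood at 111 against 174 and 274 FPKM (-0.97, SE 0.43, limma adjusted p = 0.173). At 90 min its genotypes overlapped, at 122 and 189.8 FPKM in wild type and 225 and 141 in GdX-deficient spleen. Isg15, at 634 FPKM, lay below both wild-type libraries too, as did Usp18, at 126 FPKM. Leaving out replicate 2 of wild type at 6 h, the differences of Samd9l (2.85), Oas2 (1.73), Cmpk2 (1.24) and Ifi35 (-1.19) passed, with limma adjusted p between 3.50e-05 and 0.0213. Leaving out replicate 1 instead, the same differences were 1.19, 0.84, 0.47 and -0.66, and none passed (limma adjusted p from 0.0849 to 0.535).

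These genotype differences ran with transcript length, more closely among the members than among all genes. Over the 36 members Spearman's rho between length and the genotype difference was 0.747 at 90 min and 0.717 at 6 h, against 0.429 and 0.318 over 11180 genes. The difference between the wild-type replicates had a rho with length of -0.635 at 90 min and -0.743 at 6 h over the same members. Among the 18 shorter members (756 to 2656 bases) the median genotype difference was 0.16 at 90 min and -0.23 at 6 h, and among the 18 longer ones (2910 to 7417 bases) it was 0.58 and 0.57. All 18 longer members were lower in replicate 1 than in replicate 2 of wild type at both times. With the length trend removed, the median over all 36 was 0.30 at 90 min (34 above 0) and -0.12 at 6 h (25 below 0). On that scale Samd9l differed by 1.13 and 1.47, Oas2 by 0.81 and 0.84, and Zbp1 at 6 h by -0.88, none of which passed.

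**Figure D4:**
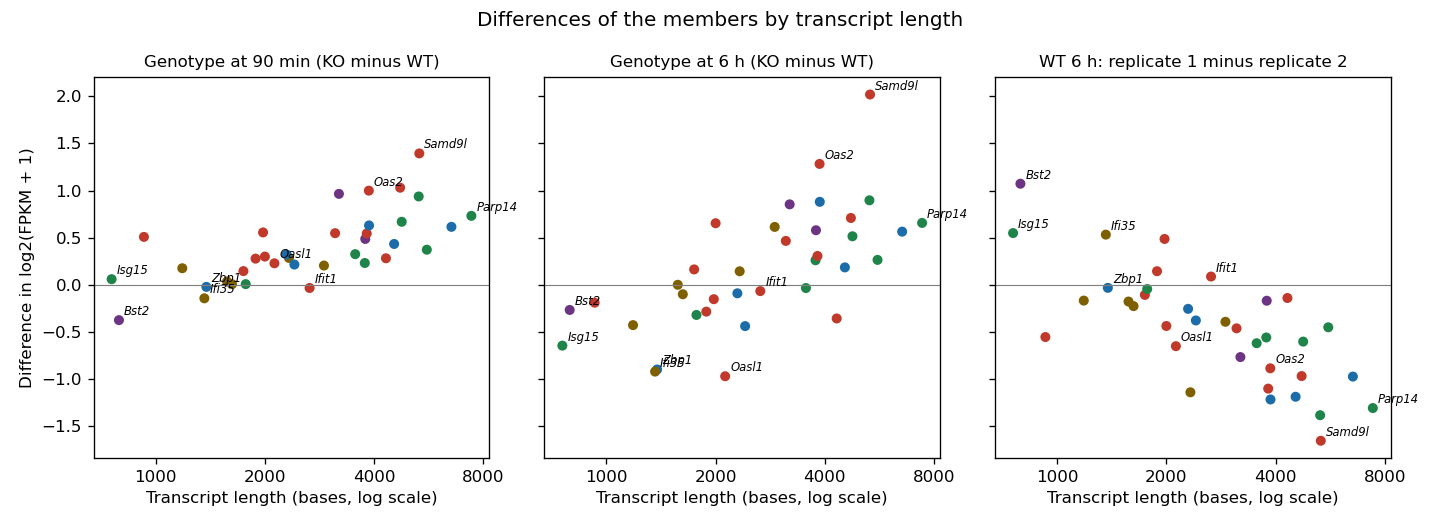
Differences in log2(FPKM + 1) of the 36 members against transcript length (log axis), for genotype at 90 min, genotype at 6 h, and the 2 wild-type replicates at 6 h. Points are coloured by role as in the heat map. Long transcripts such as Samd9l lie at the top of the genotype panels and at the bottom of the replicate panel, and short ones such as Isg15 and Ifi35 the other way round at 6 h.

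Whether the genotype difference changed between the times was tested as an interaction. No member passed in limma, where 0.0703% of all genes did (0.0352% in each direction), and 0 reached an unadjusted p below 0.05 (9.98% of the genes tested). Of the 36, 9 lay above 0 (64.2% of all genes). Differences were most negative by p for Oasl1 (-1.20, SE 0.55, limma adjusted p = 0.525), Zbp1 (-0.88, SE 0.47, limma adjusted p = 0.606) and Ifi35 (-0.78, SE 0.46, limma adjusted p = 0.661). The median was -0.13. It was 0.09 and -0.48 when wild-type 6 h replicates 2 and 1 were left out in turn, and 0.07 and -0.49 for wild-type 90 min replicates 1 and 2. With time as a covariate, 3 GdX-deficient libraries against 4 of wild type, no member passed in limma either (0.0439% of all genes, 0.0352% higher and 0.00879% lower), and 8 reached an unadjusted p below 0.05 (27% of the genes tested). Of the 36, 26 lay above 0 (62.2% of all genes). At both times 12 members stood wholly higher in GdX-deficient spleen (33.3%, against 19% of all genes) and 0 wholly lower (0%, against 13%). Samd9l (1.64, SE 0.38, limma adjusted p = 0.101), Oas2 (1.11, SE 0.29, limma adjusted p = 0.103) and Cmpk2 (0.92, SE 0.26, limma adjusted p = 0.104) led the higher ones. Without wild-type replicate 2 at 90 min Samd9l (limma adjusted p = 0.025) and Oas2 (0.0341) passed (5.56% of members, against 2.13% of all genes). Without GdX-deficient replicate 1 at 90 min Samd9l alone did (limma adjusted p = 0.0356; 2.78%, against 14.7% of all genes). Ifi35 (-0.45), Zbp1 (-0.37) and Bst2 (-0.33) led the lower ones, with limma adjusted p from 0.262 to 0.437.

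The members not yet given showed the same mixture. Eif2ak2 (PKR), the kinase that halts translation on double-stranded RNA, stood at 42.0 and 47.9 FPKM in wild type and 66.3 and 45.2 in GdX-deficient spleen at 90 min, and at 36.1, 39.95 and 29.4 at 6 h, the last GdX-deficient. Parp14, an ADP-ribosyltransferase and the longest member, stood at 65.3 and 136 FPKM in wild type and 195 and 127 in GdX-deficient spleen at 90 min, then at 33.3 and 83.8 against 84.0. Trim30a, a TRIM-family regulator, stood at 117, 146, 177 and 133 FPKM at 90 min and 103, 152 and 150.2 at 6 h, wild type first, so that its groups overlapped at both times. The ISG15 and ubiquitin genes as a role had 8 of 8 members above 0 by genotype at 90 min and 5 of 8 at 6 h, none past the threshold. They include the mouse ISG15 ligase Herc6 and the ubiquitin ligases Trim25 and Dtx3l, the latter the partner of Parp9. Of the 6 sensors 5 stood above 0 at 90 min and 3 at 6 h, and of the 13 RNA and translation effectors 12 and 7. The exonuclease gene Isg20 and the members Lgals3bp, Phf11b, Rtp4, Xaf1, Ifi204, Dhx58 and Ddx60 had no adjusted p under the threshold in any comparison. Among these, Ddx60 was higher at 6 h by 1.15 in wild type and 1.10 in GdX-deficient spleen, and Lgals3bp by 1.10 and 0.95. The times did not overlap within either genotype for these 2 genes. Rtp4 was lower at 6 h, by -0.27 and -0.30, and the others differed less between times than Lgals3bp.

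The signalling genes upstream were read from lists of 10 genes each. Of the interferon signalling genes, 1 of 10 passed for time in wild type, where 10.7% of all genes did. In limma 0 passed for genotype at 90 min or 6 h (0.0176% and 3.96% of all genes did). An unadjusted p below 0.05 was reached by 2 and 4 of the 10 (7.58% and 28.4% of all genes). Ifnb1, the interferon beta gene, stood at 12.1 and 5.68 FPKM in wild type at 90 min and 0.39 and 0.20 at 6 h and fell by 2.86 (SE 0.63, limma adjusted p = 0.0223). The GdX-deficient libraries were at 4.29 and 0.07 and then 0.27 FPKM, so that both were below wild type at 90 min, where most members stood higher. The transcription factor gene Irf7 stood at 227 and 345 FPKM in wild type and 427 and 333 in GdX-deficient spleen at 90 min, and at 481, 561 and 635 at 6 h. Socs1, an inhibitor of JAK kinases, had 201 and 194 FPKM in wild type at 6 h and 75.5 in the GdX-deficient mouse. Of the genes between LPS and interferon, 2 of 10 passed for time in wild type (10.7% of all genes), Cd14 (-1.06) and Ticam2 (-1.06). For genotype at 6 h 1 of 10 passed (3.96% of all genes), Tlr4 (1.63, limma adjusted p = 0.0481), at 5.17 against 0.76 and 1.26 FPKM.

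Cell type markers were read from lists of 6 genes (9 for red cells), all of them detected in every group. Plasmacytoid dendritic cells are known as strong interferon producers, and in mice Bst2 is also one of their surface markers. Their 6 markers summed to 632 to 1075 FPKM in wild type and 444 to 646 in GdX-deficient spleen at 90 min, and to 479 to 787 and 530 at 6 h. Most of each sum was Ly6d, at 424 to 1046 FPKM, while Siglech stood at 4.5 to 11.3. The sums therefore follow 1 gene and do not measure these cells. Of the 6 markers, 3 lay below both wild-type libraries at 90 min (23.4% of all genes did). At 6 h 4 lay above both (54.9% of all genes), among them Siglech at 9.15 against 4.5 and 4.82 FPKM, and 1 below both (25.3% of all genes), Cox6a2 at 3.58 against 9.02 and 7.92 FPKM. Of the 6 natural killer cell markers, 6 lay above 0 at 90 min and 5 at 6 h (56.5% and 66.2% of all genes). Above both wild-type libraries were 4 and 5 of them (24.1% and 54.9% of all genes). In limma 0 were past the threshold (0.0176% and 3.96% of all genes), and 2 and 3 had an unadjusted p below 0.05 (7.58% and 28.4%). Neutrophil markers summed to 667 to 1056 FPKM in wild type and 970.0 to 4638 in GdX-deficient spleen at 90 min, and to 715 to 1046 against 2501 at 6 h. At both times 6 of 6 lay above 0 (56.5% and 66.2% of all genes) and 0 were past the threshold (0.0176% and 3.96%). B cell markers at 6 h summed to 468 to 469 FPKM in wild type and 1727 in the GdX-deficient library, with 2 of 6 past the threshold. Also past it, and higher, at 6 h were 2 of 6 red pulp macrophage, 1 of 6 T cell and 1 of 6 monocyte markers, where 2.91% of all genes were called higher. Red cell markers were higher past the threshold for 2 of 9 at 90 min (0.0176% of all genes) and 4 of 9 at 6 h (2.91%), Hbb-b1 and Hbb-b2 included at both times. The part of these cell type differences in the members' values was not tested.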

How the data were processed

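Per the labels' protocols, libraries of spleen RNA were read on the BGISEQ-500 platform after enrichment by oligo-dT selection or depletion of ribosomal RNA (which of the 2 is not stated). The authors deposited FPKM values with 1 column per library, per the file headers. HISAT, HISAT2 2.0.4, Bowtie2, RSEM and build GRCm38.p5 are named in the submitters' processing notes, without their roles. Fragments per library were estimated from the steps of low values in genes with 1 transcript.

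Values were converted to log2(FPKM + 1), which understates changes of low genes. Tests used limma 3.58.1 (R 4.3.3) on 11378 genes whose mean FPKM reached 1 (empirical Bayes with a trend, two-sided, Benjamini-Hochberg over all genes tested, threshold 0.05). The 4 groups were fitted together, so that they share 1 estimate of spread, and genotype with time as a covariate was an additive fit. The script was tested on simulated data. The design text counts 7 mice, but nothing ties a library to a mouse beyond that. Lengths came from GENCODE M21 transcripts matched by RefSeq accession and were found for all 36 members.

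The members, lists, tests and the rule for named genes were chosen with earlier results of these data known. Values in every library are given for 15 core genes (Mx1 excepted), for the 3 members with the smallest p in each direction of each comparison, and for the 3 with the highest mean. Alternatives were a pseudocount of 0.1, no filter, a mean of at least 5, quantile normalization, rescaling without globin genes, a replicate block, a fit of only the libraries compared, and each library left out. Removal of the length trend (lowess, span 0.3) was added after seeing the data. One gene of the interferon signalling list is not reported here by name.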

Additional observations from a re-analysis of the deposited data

How the results depend on the processing

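For time in wild type, the 7 members that passed became 1 (lower) without a filter on low values, 4 (1 higher and 3 lower) with FPKM rescaled without the globin genes and 4 (2 and 2) in the fit of only its 4 libraries, with from 2 to 16 when single libraries were left out. For genotype at 90 min the count of 0 became 1 in the fit of only its 4 libraries and lay between 0 and 1 with single libraries left out. In the same leave-one-out fits it lay between 0 and 8 for genotype at 6 h, 0 and 2 for time in GdX-deficient spleen, and 0 and 2 for genotype with time as a covariate. The median of the interaction lay between -0.49 and 0.0944 in them.

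The replicate numbers of the titles were tried as a block. Deviations of replicate 1 from 2 correlated over genes at 0.768 between the wild-type groups, and at -0.12 and 0.08 between GdX-deficient spleen and wild type at 90 min and 6 h, so same-numbered wild-type libraries deviated together and the GdX-deficient ones did not go with them. Nothing in the labels says what a number stands for. With the replicate block, 12 members passed for time in wild type (6 higher and 6 lower; 33.3%, against 20.6% of all genes), 5 for genotype at 6 h (4 higher and 1 lower; 13.9%, against 29.7% of all genes), and 0 for genotype at 90 min, time in GdX-deficient spleen, the interaction and genotype with time as a covariate.

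The members' median changed sign for time in wild type (-0.13 and -0.09 without wild-type 6 h replicate 2 and 90 min replicate 1), for genotype at 6 h (-0.12 with the length trend removed, -0.02 without wild-type 6 h replicate 1) and for the interaction (0.0944 and 0.0676 without wild-type 6 h replicate 2 and 90 min replicate 1). Single genes were followed across settings only for some named members of each comparison. Among these, Ifi35 reversed for genotype at 90 min. It stood at 0.074 with quantile normalization, 0.0646 without the globin genes and 0.0154 with the length trend removed. With single libraries left out Ifi35 ran from -0.42 to 0.13, the latter without GdX-deficient replicate 2. Zbp1 reversed for time in GdX-deficient spleen (-0.0299 to 0.72 with single libraries left out, the former without replicate 2). Other members changed sign too. For genotype at 6 h, members above 0 went from 19 to 27 with quantile normalization and to 11 with the length trend removed. For genotype at 90 min they went from 32 to 23 without GdX-deficient replicate 1. Counts over all genes moved too: for time in wild type from 1218 to between 450 and 2423, for genotype at 90 min from 2 to between 0 and 183, for genotype at 6 h from 450 to between 90 and 3383, for the interaction from 8 to between 0 and 238, for time in GdX-deficient spleen from 0 to at most 236, and with time as a covariate from 5 to between 2 and 1674. All member values rest on about 150 fragments or more. Groups of 2 libraries and 1, the transcript-length trend between replicates and the scaling at 6 h all bear on them, and these limits were not ranked.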
